A study of Mus musculus with 5 samples.

Results

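The genes described here encode 8 proteins of the red-cell membrane and the cytoskeleton beneath it, namely Sptb, Ank1, Slc4a1, Epb42, Rhag, Rhd, Kel and Ermap. They were chosen by name, with earlier results of these data known, so counts among them describe the list and test nothing. All 8 were found among the 54113 named genes of the table and passed the filter on low counts that left 16133 genes to test. The samples are labelled as tumour tissue of C57BL/6 mice with CRC, for which the study used MC-38, a mouse colon adenocarcinoma line. The marker genes given below go against that label, though levels in MC-38 cells were not compared. Of 5 libraries, 3 were from mice housed at 30 °C (thermoneutrality) and 2 from mice housed at 4 °C (cold), both for 2 weeks. The labels give no age, and no other allele or agent distinguishes the groups. The study calls the samples biological ones, but the labels do not tie each to a mouse, so the tests measure the spread between these samples, which may in part be technical.

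A red cell keeps its shape through a net of spectrin that lies under the membrane. Ankyrin ties the beta chain of spectrin to band 3, the anion exchanger, in a complex that also holds protein 4.2 and the Rh proteins, and a further set of anchors joins the net to short actin filaments. Erythroblasts, the nucleated precursors found in the bone marrow and, in mice, also in the red pulp of the spleen, make these proteins while they build up haemoglobin. Mature red cells of mammals have lost their nucleus and make no new RNA.

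Depth ran from 16191708 to 20320525 counts per library. Pancreatic acinar transcripts, summed over 10 genes, reached 188135 counts per 1000000 counts (CPM) in 30 °C replicate 2, against 1720 CPM in 4 °C replicate 2 and at most 28.9 CPM in the other libraries, so results are also given without that library or after TMM scaling. Against the tumour label, the 8 epithelial and colon carcinoma genes summed to between 18.9 and 121 CPM in the 5 libraries. Of the 8, 5 were above 3 counts in every library, and Vil1, which encodes the brush-border protein villin, had at most 4 counts in any library. The highest of these sums, 121 and 91.3 CPM, were in 30 °C replicate 2 and 4 °C replicate 2, which also held the most acinar transcripts. The level of these genes in MC-38 cells was not compared. All 10 erythroblast markers and all 6 markers of red pulp and splenic stroma that were looked up in the table were above 3 counts in every library.

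Promoter windows were read for 6 of the 8 genes from RefSeq on GRCm38.p6, each running from 250 bases before to 50 bases after a transcription start. The 4 shown belong to the gene with the largest fitted difference between the temperatures (Ermap), the one with the smallest (Rhd), the one with most matches to the GATA motif (Kel) and the one with none (Sptb). They are written 5′ to 3′ on the strand of the gene, with capitals marking AGATAA or TGATAA, forms of the motif that the erythroid factor GATA1 binds, and CACCC, the core of the motif that KLF1 binds, each searched on both strands.
Ermap, chr4:119189946-119190245, minus strand: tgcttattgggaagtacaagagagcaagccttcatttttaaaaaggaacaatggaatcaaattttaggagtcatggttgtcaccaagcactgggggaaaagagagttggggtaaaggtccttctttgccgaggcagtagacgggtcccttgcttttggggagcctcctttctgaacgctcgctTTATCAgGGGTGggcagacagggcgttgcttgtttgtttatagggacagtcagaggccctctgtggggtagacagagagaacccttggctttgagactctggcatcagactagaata
Rhd, chr4:134864286-134864585, plus strand: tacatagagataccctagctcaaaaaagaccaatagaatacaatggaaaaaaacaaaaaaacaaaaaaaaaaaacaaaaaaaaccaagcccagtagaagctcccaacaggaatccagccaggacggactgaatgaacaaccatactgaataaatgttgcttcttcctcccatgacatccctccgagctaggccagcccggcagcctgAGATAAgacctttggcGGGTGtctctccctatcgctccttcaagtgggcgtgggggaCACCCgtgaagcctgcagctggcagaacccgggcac
Kel, chr6:41704276-41704575, minus strand: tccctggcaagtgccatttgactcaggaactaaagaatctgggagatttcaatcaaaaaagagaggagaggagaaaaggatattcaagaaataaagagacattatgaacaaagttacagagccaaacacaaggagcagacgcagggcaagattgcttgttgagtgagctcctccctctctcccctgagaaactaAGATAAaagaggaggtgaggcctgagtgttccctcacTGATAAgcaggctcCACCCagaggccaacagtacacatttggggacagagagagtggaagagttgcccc
Sptb, chr12:76710498-76710797, minus strand: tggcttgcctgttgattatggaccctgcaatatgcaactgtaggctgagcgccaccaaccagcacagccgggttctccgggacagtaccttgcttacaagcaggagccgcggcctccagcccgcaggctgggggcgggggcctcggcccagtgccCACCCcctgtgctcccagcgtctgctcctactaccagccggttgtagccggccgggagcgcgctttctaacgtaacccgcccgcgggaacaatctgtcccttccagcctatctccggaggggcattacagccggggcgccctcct
AGATAA or TGATAA stood in 5 of the 6 windows (Epb42, Ermap, Rhd, Kel and Rhag) and in 18.6% of the 32851 promoter windows of the reference. CACCC stood in 5 of the 6 as well (all except Epb42), against 57.5% of all windows. In Kel the 2 GATA motifs began 56 and 19 bases before the start, in Ermap the match began 67 bases before it, in Rhd 43, in Rhag 31 and in Epb42 226. These are matches of letters only, and binding was not measured.

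All 8 genes had lower fitted levels at 4 °C than at 30 °C, with log2 fold changes between −1.16 for Ermap and −0.45 for Rhd. Their median was −0.85, against 0.01 over all genes tested, of which 49.3% were lower at 4 °C. In edgeR's quasi-likelihood test, after Benjamini-Hochberg adjustment over the whole table, 0 of the 16133 genes had an adjusted p under 0.05 (0.0%), and so 0 of the 8 did, while 6.76% of all genes, in either direction, had an unadjusted p under 0.05. At an unadjusted p under 0.05, 5 of the 8 were lower (Ermap, Sptb, Ank1, Rhag and Slc4a1), against 4.17% of all genes for this direction. With 30 °C replicate 2 left out, this count was 3 of 8 (Ermap, Sptb and Ank1), against 2.2% of all genes. It was also 3 without 4 °C replicate 1 (4.24% of all genes) and 3 without 4 °C replicate 2 (2.35%), each of which leaves a lone cold library that is assumed to vary like the others, and it was 7 without 30 °C replicate 3 (5.66%), 7 with DESeq2 (5.33%), 7 with no filter (2.99%) and 8 with the replicate number as a block (4.06%). Number 3 occurs only at 30 °C, so the block fit took nothing from that library for the comparison of temperatures. The replicate numbers were not taken to pair the samples. In bulk tissue, fewer erythroblasts and less of these transcripts per erythroblast cannot be told apart.

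Sptb encodes the erythroid beta spectrin chain and is annotated on chromosome 12 of GRCm38, from 76580488 to 76710547. It had 428, 390 and 374 CPM in the libraries at 30 °C and 216 and 209 CPM at 4 °C. Both cold libraries lay well below all 3 warm ones, also after TMM scaling, which widened the warm values to 398, 529 and 332 CPM. The means were 397 ± 27.6 CPM (SD, n = 3) and 212 ± 4.72 CPM (SD, n = 2), and the fitted log2 fold change was −1.06 (95% interval −1.64 to −0.49, adjusted p = 0.69 from edgeR). Ank1, the erythroid ankyrin gene on chromosome 8 from 22974844 to 23150497, had 265, 216 and 233 CPM at 30 °C and 137 and 117 CPM at 4 °C, again without overlap. Its log2 fold change was −1.05 (95% interval −1.55 to −0.55, adjusted p = 0.69 from edgeR). An antisense gene, Gm15816, shares 6.37% of the exon bases of Ank1, but had only 3 to 16 counts per library. Sptb and Ank1 had the most alike profiles over the 5 libraries of the 28 pairs among the 8 genes, with a root mean square difference of 0.08 log2 units, which Sptb and Ermap equalled to that precision.

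Slc4a1 encodes band 3, which exchanges chloride for bicarbonate and anchors the ankyrin complex. It lies on chromosome 11 from 102348824 to 102366203. It had the highest counts of the 8 genes, with 2079, 1691 and 1418 CPM at 30 °C and 1243 and 1074 CPM at 4 °C. The groups did not overlap, although the warm libraries spread more widely than the gap between the groups. The log2 fold change was −0.74 (95% interval −1.42 to −0.06, adjusted p = 0.71 from edgeR). Epb42, the gene of protein 4.2 on chromosome 2 from 121017891 to 121037072, had 174, 120 and 110 CPM at 30 °C and 111 and 81.0 CPM at 4 °C. Here 4 °C replicate 1 lay just above 30 °C replicate 3, so the groups overlapped. Its fitted log2 fold change of −0.64 had a 95% interval from −1.32 to 0.05 (adjusted p = 0.75 from edgeR).

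**Figure D1:**
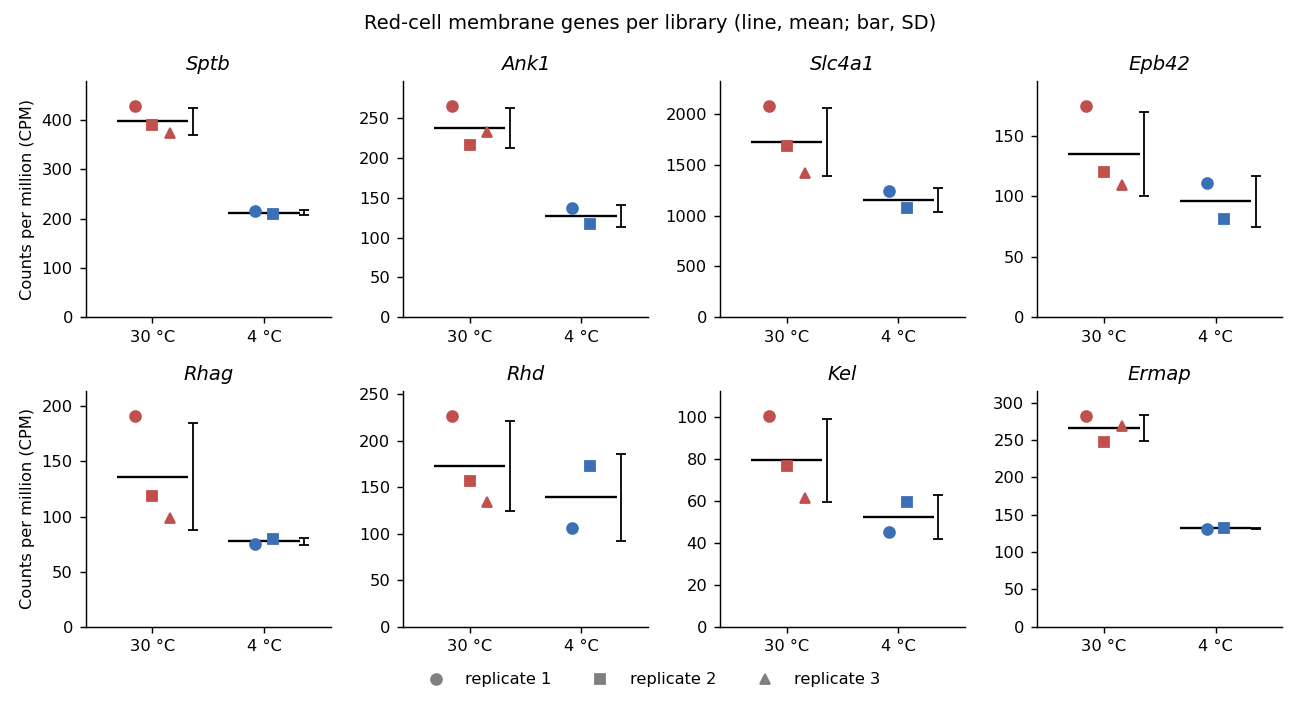
CPM of each of the 8 genes in the 3 libraries at 30 °C and the 2 at 4 °C; points are libraries (marker shape gives the replicate number), horizontal lines are group means and bars are SD, on axes that start at 0. In every panel 30 °C replicate 1 is the highest library, and only in Epb42 and Rhd does a cold library reach the warm ones. After TMM scaling, which is not shown, 30 °C replicate 2 is the highest for every gene but Rhag, and Kel overlaps as well.

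Rhag and Rhd encode the Rh-associated glycoprotein, a channel-like protein, and the Rh protein itself, which sit together in the membrane. Rhag, on chromosome 17 from 40811126 to 40840754, had 191, 119 and 98.8 CPM at 30 °C and 75.3 and 79.4 CPM at 4 °C. Both cold libraries were below the warm ones, and 30 °C replicate 1 stood apart above the other warm ones in CPM, whereas after TMM scaling the warm values were 178, 161 and 87.7 CPM, with 30 °C replicate 3 apart below. The log2 fold change was −0.95 (95% interval −1.73 to −0.18, adjusted p = 0.70 from edgeR). Rhd, on chromosome 4 from 134864536 to 134896172, departed from its partner. Its values were 227, 157 and 134 CPM at 30 °C and 106 and 172 CPM at 4 °C, so that one cold library was the lowest of the 5 and the other the second highest. The log2 fold change of −0.45 had an interval from −1.28 to 0.38 (adjusted p = 0.85 from edgeR). Rhd had the most divergent profile of the 8 genes, and its largest pairwise difference, 0.46 log2 units, was with Ermap. Per base of exon, Rhag stood at 0.53 ± 0.039 of the level of Rhd at 30 °C (SD, n = 3) and at 0.48 and 0.31 of it in the 2 libraries at 4 °C.

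Kel encodes the Kell blood group protein, an endopeptidase of the cell surface that is bound to the transporter Xk. Kel lies on chromosome 6 from 41686330 to 41704339, and its levels were 101, 76.6 and 61.3 CPM at 30 °C and 45.1 and 59.7 CPM at 4 °C. The groups were separated by a narrow margin, which TMM scaling removed. Its log2 fold change was −0.75 (95% interval −1.53 to 0.02, adjusted p = 0.74 from edgeR). Ermap, a membrane protein of the immunoglobulin superfamily that carries the Scianna blood group in humans, is encoded on chromosome 4 from 119175457 to 119190011. It had 282, 247 and 269 CPM at 30 °C and 131 and 132 CPM at 4 °C, the clearest separation of the 8 genes. At 4 °C the mean was 49.5% of that at 30 °C, and the log2 fold change was −1.16 (95% interval −1.65 to −0.67, adjusted p = 0.69 from edgeR).

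In CPM, both cold libraries lay below all warm libraries for 6 of the 8 genes, against 5.41% of the genes tested. With 30 °C replicate 2 left out, the count was again 6 of 8, against 17.5% of all genes, and in TMM-scaled CPM it was 5 of 8, against 11.0%. Summed over the 8 genes, the levels were 3747, 3017 and 2698 CPM at 30 °C and 2064 and 1925 CPM at 4 °C, and the cold mean was 63.2% of the warm mean. As a log2 ratio of the means this was −0.66, and after TMM scaling it was −0.82. By the Wald test of DESeq2, the tool that the study names, 3 of the 8 genes had an adjusted p under 0.05 (Ermap 0.0012, Ank1 0.0047 and Sptb 0.017), all lower at 4 °C, as did 0.787% of the genes that received an adjusted p. Over all settings the adjusted p of Ermap ran up to 1.00.

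Per kilobase of exon, the order of mean level over the 5 libraries was Slc4a1 with 307 CPM per kb, Rhd with 99.97, Rhag with 48.2, Ermap with 40.1, Sptb with 26.6, Kel with 24.8, Epb42 with 22.0 and Ank1 with 14.3. Slc4a1 was above Rhd, Rhd above Rhag, Ermap above Sptb and Epb42 above Ank1 in every library, the last of these in 4 of 5 with the longest transcript as length. Rhag exceeded Ermap in 4 of 5 libraries, Sptb exceeded Kel in 3 and Kel exceeded Epb42 in 4, and these neighbours differed by less than their SD over the libraries. The level of Slc4a1 per base of exon was between 16.9 and 25.3 times that of Ank1, or between 11.2 and 16.9 times with the longest transcript as length. This ratio was 21.7, 21.6 and 16.9 at 30 °C and 25.1 and 25.3 at 4 °C.

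The partner proteins of the complex were read from a list of 14 genes, of which 13 could be tested and Icam4 was listed at 0 counts. Of these, 11 were lower and 2 higher at 4 °C, none with an adjusted p under 0.05 (edgeR), and the median log2 fold change was −0.58. At an unadjusted p under 0.05, 4 were lower (Xk, Add2 and Tmod1 among them, the last named after its values were seen and known for capping actin filaments) and none higher, against 4.17% and 2.58% of all genes. DESeq2 gave 2 of the 13 an adjusted p under 0.05, both lower, against 0.787% of the genes that received one. Xk, the partner of Kell, had 40.6, 38.1 and 37.5 CPM at 30 °C and 20.4 and 17.1 CPM at 4 °C (log2 fold change −1.21, SE 0.25). Add2, the adducin chain that caps the actin filaments in red cells, had a log2 fold change of −0.80 (SE 0.23), with both cold libraries below the warm ones. The 2 genes on the higher side, Tpm1 and Tpm3, were named after their values were seen and encode tropomyosins that many cell types share. Tpm1 had 191, 115 and 164 CPM at 30 °C and 195 and 216 CPM at 4 °C.

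Of 18 further genes of the red-cell surface and its transporters, 16 were lower and 2 higher at 4 °C (13 to 16 lower over the alternative settings), with a median log2 fold change of −0.55 and 0 adjusted p under 0.05 by edgeR or DESeq2. At an unadjusted p under 0.05, 5 were lower and 1 higher in the edgeR fit, against 4.17% and 2.58% of all genes. The 2 on the higher side were Bcam, an adhesion molecule, and Slc2a1, a glucose transporter, both named after their values were seen. Bcam overlapped between the groups. Slc2a1, the 1 gene higher at that unadjusted p, had 48.1, 20.1 and 42.4 CPM at 30 °C and 56.8 and 58.5 CPM at 4 °C (adjusted p = 0.73 from edgeR). By qPCR, the study reports the opposite direction for this gene, under the name Glut1, in cold-exposed tumours. Mfsd2b, which exports sphingosine-1-phosphate from red cells, had 80.3, 66.1 and 63.9 CPM at 30 °C and 38.4 and 46.4 CPM at 4 °C. Aqp1, the water channel, had 519, 458 and 487 CPM at 30 °C and 292 and 351 CPM at 4 °C. Tfrc, the transferrin receptor through which erythroblasts take up iron, spread from 364 to 906 CPM at 30 °C and stood at 293 and 241 CPM at 4 °C.

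The relatives that other cells use in place of the red-cell proteins were split evenly, with 6 of 12 tested genes lower and 6 higher at 4 °C (5 to 10 lower over the alternative settings) a median log2 fold change of −0.01 and 0 genes with an unadjusted p under 0.05. Sptbn1, the general beta spectrin chain, had 173, 144 and 314 CPM at 30 °C and 295 and 159 CPM at 4 °C, a log2 fold change of 0.01 (SE 0.33). Its libraries did not sort by temperature. Sptan1, another spectrin chain of many cell types, had a log2 fold change of 0.05 (SE 0.27), and Slc4a2, the widely expressed anion exchanger, one of −0.03 (SE 0.19). Per base of exon, Slc4a1 stood at 51.9 to 122 times Slc4a2, and Ank1 at 55.5 to 151 times Ank3, whereas Sptb was between 1.05 and 3.89 times Sptbn1. These ratios depend on the length used, and with the longest transcript in place of the union of exons they ran from 28.6 to 67.1 for Slc4a1, from 25.7 to 69.9 for Ank1 and from 0.64 to 2.37 for Sptb, which then stood below Sptbn1 in 4 °C replicate 1. The other Rh family genes, Rhbg and Rhcg, were at or below 3 counts in every library, too few to test. The differences between the relatives and the red-cell genes were not tested.

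**Figure D2:**
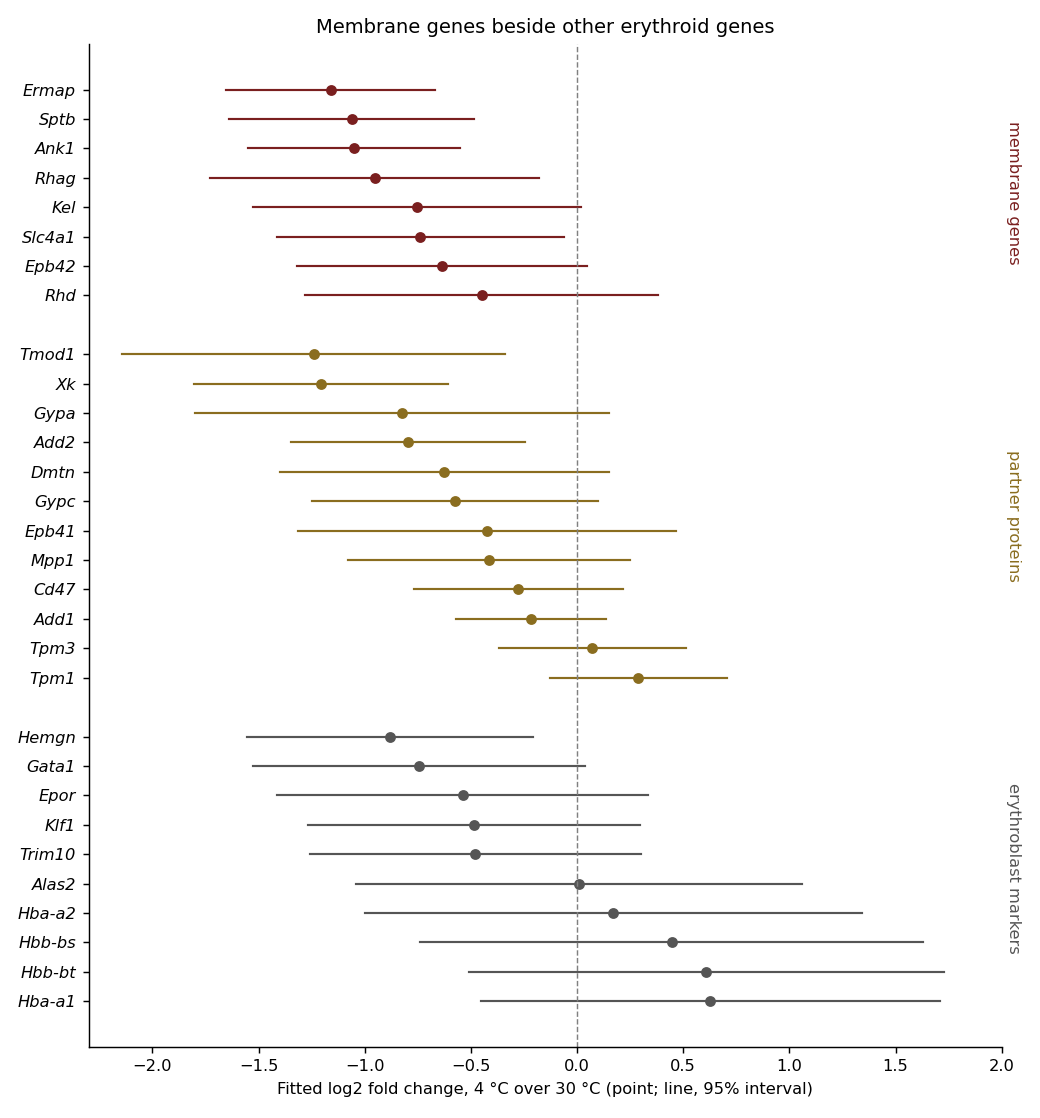
Fitted log2 fold change of 4 °C over 30 °C for the 8 membrane genes, 12 of their 13 tested partner genes and 10 erythroblast markers; points are estimates and lines 95% intervals from the edgeR fit. The 8 membrane genes all lie left of 0, while the 4 globin genes at the bottom lie right of 0 with wide intervals that include it.

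Not all erythroid transcripts followed the membrane genes. The 4 globin genes (Hba-a1, Hba-a2, Hbb-bs and Hbb-bt) summed to 24934, 27571 and 13298 CPM at 30 °C and to 32944 and 39621 CPM at 4 °C, where both cold libraries were above the warm ones. In the fit all 4 had positive log2 fold changes (median 0.53), except that 1 of them was negative with the replicate block, without 30 °C replicate 3 and without 4 °C replicate 1, and 0 of the 4 had an adjusted p under 0.05 by edgeR or DESeq2, or an unadjusted one. After TMM scaling the groups overlapped for each of the 4, and those of Hba-a2 overlapped in CPM as well. The 6 other erythroblast markers (Alas2, Hemgn, Trim10, Klf1, Gata1 and Epor) summed to 2116, 1788 and 1180 CPM at 30 °C and 1661 and 1580 CPM at 4 °C, values that overlapped, and 5 of the 6 were lower in the fit (5 or 6 over the alternative settings). Hemgn and Alas2 are named as the lowest and the highest of the 6, after their values were seen. Hemgn, an erythroid nuclear protein, had a log2 fold change of −0.88 (SE 0.28), close to those of the membrane genes. Alas2, the first enzyme of haem synthesis in red-cell precursors, had one of 0.01 (SE 0.44).

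Per 1000 counts of the globin genes, the 8 membrane genes had 150, 109 and 203 counts at 30 °C and 62.7 and 48.6 at 4 °C. The cold mean was 36.1% of the warm mean. Each of the 8 genes taken alone had both cold libraries below all warm ones on this scale, against 17.5% of the genes tested. Per 1000 counts of the 6 other erythroblast markers, the values were 1771, 1688 and 2286 at 30 °C and 1242 and 1218 at 4 °C, with the cold mean at 64.3% of the warm mean. On that scale 7 of the 8 genes had groups that did not overlap (all except Rhd), against 3.91% of the genes tested. Alas2 was the largest part of this denominator, with 1136, 1113 and 559 CPM at 30 °C and 1189 and 983 CPM at 4 °C. The scale thus largely sets the membrane genes against Alas2, whose log2 fold change was 0.01, and a ratio without Alas2 was not computed. Both denominators were read from the same libraries, and the choice to split the markers into globin and other genes was made after their values were seen.

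**Figure D3:**
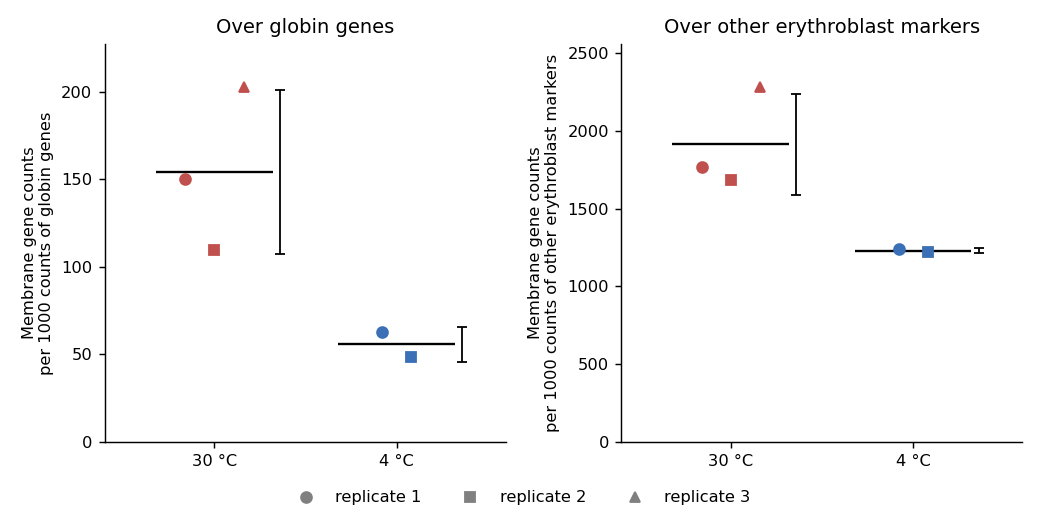
Summed counts of the 8 membrane genes per 1000 counts of the 4 globin genes (left) and per 1000 counts of 6 other erythroblast markers (right) in each library; horizontal lines are group means and bars are SD, on axes that start at 0. On both scales the cold libraries lie below every warm library, at 62.7 and 48.6 on the left and at 1242 and 1218 on the right. Alas2 is the largest part of the denominator on the right.

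The libraries also differed within the warm group. For all 8 genes 30 °C replicate 1 was the highest library in CPM, and the lowest was 4 °C replicate 1 for 4 genes and 4 °C replicate 2 for the other 4. After TMM scaling, which allows for the acinar share of 30 °C replicate 2, the mean of the centred log2 CPM of the 8 genes was 0.47, 0.63 and −0.11 at 30 °C and −0.54 and −0.44 at 4 °C. The third warm library thus stood nearer to the cold libraries than the other warm ones did. It held the lowest globin level of the 5.

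**Figure D4:**
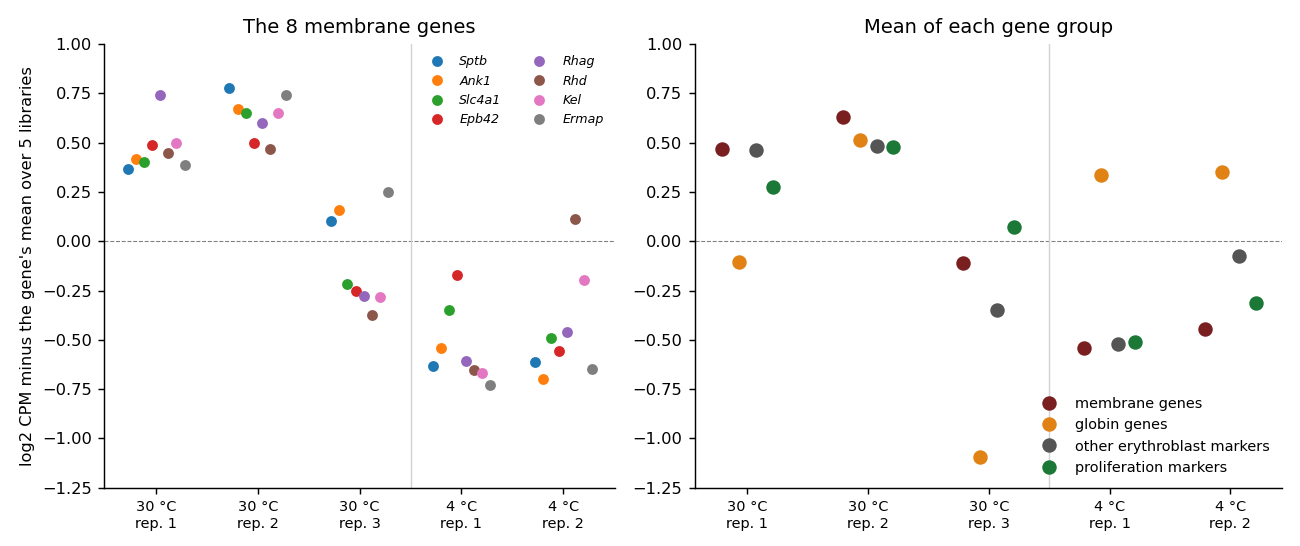
Log2 CPM after TMM scaling, minus each gene's mean over the 5 libraries, for the 8 membrane genes (left) and as the mean of the membrane genes, 4 globin genes, 6 other erythroblast markers and 6 proliferation markers (right). The membrane genes average 0.63 in 30 °C replicate 2 and −0.54 in 4 °C replicate 1, and the globin genes stand at −1.09 in 30 °C replicate 3.

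Among the 11615 tested genes with a mean of at least 5 TMM-scaled CPM, the 5 non-members whose profile over the 5 libraries was most like the mean profile of the 8 genes were Tal1, Wipi1, Sgo1, Depdc1b and Mettl27, with root mean square differences between 0.04 and 0.08 log2 units. Tal1, a transcription factor of blood-forming cells, had 198, 161 and 139 CPM at 30 °C and 105 and 107 CPM at 4 °C (log2 fold change −0.81, SE 0.27). Its profile was nearer to the mean than that of any of the 8 genes, the nearest of which was Slc4a1 at 0.11. Sgo1 encodes shugoshin, which protects the cohesion of chromosomes in dividing cells. The points of such profiles share library depth and composition, and 5 libraries give little room to tell profiles apart.

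Markers of other cell types and of dividing cells were read beside these results. All of the markers in this paragraph were above 3 counts in every library. The 6 proliferation markers summed to between 1351 and 1526 CPM at 30 °C and between 861 and 918 CPM at 4 °C, without overlap, and all 6 were lower in the fit. The 7 neutrophil markers ranged from 3141 to 12927 CPM at 30 °C and from 2586 to 3968 CPM at 4 °C, and all 7 were lower in the fit. The 6 B cell markers ranged from 1135 to 3195 CPM at 30 °C and from 2774 to 3471 CPM at 4 °C, and all 6 were higher in the fit. The 6 megakaryocyte markers, of the lineage nearest to the red cells, overlapped, from 314 to 346 CPM at 30 °C and from 311 to 391 CPM at 4 °C. All 6 were lower in the fit, with a median log2 fold change of −0.07, but between 1 and 6 were lower over the settings. The 6 markers of red pulp and splenic stroma also overlapped, from 681 to 1375 CPM at 30 °C and from 1180 to 1188 CPM at 4 °C. Of these, 5 were higher in the fit, and the median was 0.40. The part of these differences in the levels of the membrane genes was not tested. The labels name no batch.

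**Figure D5:**
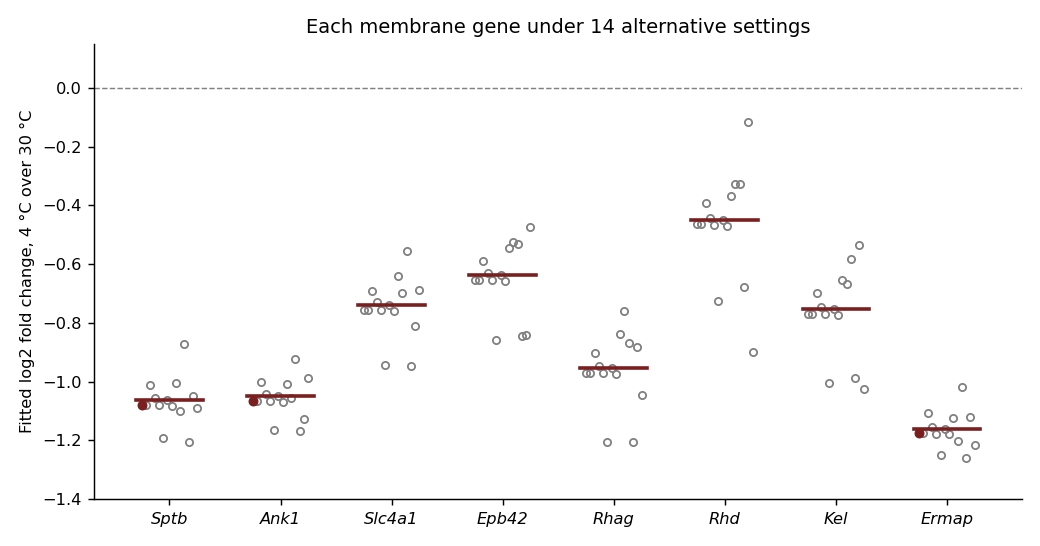
Fitted log2 fold change of 4 °C over 30 °C of each membrane gene under the edgeR fit (horizontal line) and under 14 alternative settings (circles; filled where the adjusted p was under 0.05). Every value lies below 0, from −1.26 for Ermap to −0.11 for Rhd, and the filled circles, for Sptb, Ank1 and Ermap, are those of DESeq2.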

How the data were processed

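Total RNA of tissue labelled as tumour was sequenced, in 3 libraries at 30 °C and 2 at 4 °C. The deposited values are whole numbers per gene and were taken as raw counts on GRCm38. The paper names featureCounts with the Gencode vM19 annotation, whereas the submitters' processing notes name fastp, HISAT and RSEM. Which of these made the deposited values is not settled by the sources used here. The strand setting and the treatment of reads mapping to several genes are not given in the sources used here. Entries without a name (333, at most 0.0170% of counts) were left out. For 97 symbols that occur more than once, the most abundant entry was used under that symbol. No value column was left unused.

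Counts were filtered with filterByExpr, scaled by TMM and tested with the quasi-likelihood F-test of edgeR 4.0.16 (robust, no covariate) in R 4.3.3, with Benjamini-Hochberg adjustment over all 16133 genes. Alternatives were DESeq2 1.42.0 (Wald test), scaling by upper quartiles or by RLE, a filter of at least 10 counts in every library or none, non-robust estimation, a block for the replicate number, leaving out the acinar genes or each library in turn, and the erythroblast level as a covariate. Of the 11 erythroblast markers listed, Ahsp was not analysed here. Log2 CPM used a prior count of 2. The floor was set at 3 counts (0.148 to 0.185 CPM). Intervals are 95% and approximate. Their SE was derived from the fitted log2 fold change and its F statistic, and was multiplied by a quantile of the t distribution. Exon lengths and coordinates come from GENCODE M21 on GRCm38, and levels per kilobase use the union of exons. Methods were tested on simulated data with log2 changes of 2 in either direction, larger than those of the 8 genes. The simulated libraries did not differ in acinar share, so that test does not bear on the differences reported here. The 8 genes and all lists were chosen with earlier results of these data known. Named genes are the 8, the 3 with the smallest p in each other list, relatives of the 8 and the 5 with the most similar profile. Genes outside this rule are marked in the text, and 1 gene under it is not reported here.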

Additional observations from a re-analysis of the deposited data

How the results depend on the processing

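The log2 fold changes of the 8 genes stayed below 0 in all 112 combinations of gene and alternative setting (14 for each gene), and 8 of 8 were lower at 4 °C each time. Their median lay between −1.08 and −0.73 with each library left out in turn, and the log2 ratio of summed CPM, −0.66, between −0.76 and −0.52. After TMM scaling the log2 ratio was −0.82, and in CPM without the acinar markers it was −0.76. Taken per 1000 counts of the erythroblast markers, that ratio was −1.42, and per 1000 counts of the globin genes alone (chosen after seeing the data) −1.47, since the denominators were higher at 4 °C. The count of genes with an adjusted p under 0.05, 0 by edgeR, was 118 with DESeq2 (92 lower), 7 with the erythroblast level as a covariate, 1090 where no adjustment was made, and 0 with each library left out in turn. The cause was not tested. DESeq2 called Sptb, Ank1 and Ermap, and over the 14 settings the adjusted p of Ermap ran from 0.0012 to 1.00. With the longest transcript as length, 2 of the 8 genes, Kel and Epb42, traded ranks. Of 10 ratios between genes per length, 4 moved by more than their SD with that length, which was added after seeing the data.

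With the replicate number as a block, 44 genes had an adjusted p under 0.05, none of them among the 8, whose median was −1.08. Deviations from the group means correlated at −0.25 over genes for the libraries numbered 1 and at 0.26 for those numbered 2. The largest correlation, 0.62, was between 30 °C replicate 3 and 4 °C replicate 1. With 2 cold libraries, the deviations of one mirror those of the other, so these values cannot decide whether the numbers pair the samples. The numbers were not taken to pair them. Leaving out a library at 4 °C leaves 1 in that group, which is then assumed to vary like the others. The 95% intervals of Rhd, Epb42 and Kel include 0.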
